A study of Mus musculus with 15 samples.

Results

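The nuclear receptor family was described here through 33 genes, out of 26839 genes listed in at least 1 of the 3 deposited count tables. They were taken by symbol from a list of receptors, which was chosen with earlier results of these data known. All 33 had counts, and 32 passed the filter on low counts in every comparison. Vdr, the vitamin D receptor, did not: it had 0 to 7 counts a library. The libraries were bulk RNA-seq of whole liver from male C57BL/6J mice after 16 weeks on a diet, 15 libraries in 5 groups of 3, and every group had received an adeno-associated virus of serotype 8 (AAV8). The chow GFP group ate standard chow with normal water, and its vector expressed green fluorescent protein (GFP) from the liver-specific thyroxine binding globulin (TBG) promoter. The other 4 groups received sugar water and an FPC diet that gives non-alcoholic steatohepatitis (NASH). Of these, NASH GFP carried the same TBG vector with GFP and Activin A carried TBG with Activin A, a secreted ligand of the TGF-beta family. The scramble and Gpnmb hairpin groups carried a vector in which the H1 promoter drives a hairpin RNA, scrambled or against Gpnmb, a transmembrane glycoprotein gene. No label states that the libraries of a group are separate animals, so each p-value reflects variation among libraries that may be technical.

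Nuclear receptors are transcription factors with a zinc finger DNA-binding domain and a ligand-binding domain, and many bind repeats of the core motif AGGTCA as partners of a retinoid X receptor (RXR). Ligand exchanges corepressors for coactivators. In liver they set bile acid, sterol, fatty acid and drug metabolism: FXR (Nr1h4) senses bile acids and induces SHP (Nr0b2), PPAR-alpha (Ppara) drives fatty acid oxidation, CAR (Nr1i3) and PXR (Nr1i2) sense foreign compounds, and HNF4A maintains hepatocyte gene expression.

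Promoters are shown for 4 members that the results turn on: Nr0b2 and Rora, which rose with the Gpnmb hairpin, and Nr1h4 and Nr1i3, whose response differed between Activin A and the hairpin. Each sequence is the 250 bases upstream of a RefSeq transcript start on build GRCm38.p6, written 5′ to 3′ on the gene's strand, with a searched motif in capitals. The windows are chr4:133553126-133553375 (plus strand), chr9:68653536-68653785 (plus), chr10:89506659-89506908 (minus) and chr1:171213720-171213969 (plus), and GENCODE M21 places no annotated exon in any of them. In Nr0b2 the capitals mark the E-box CACGTG, which starts at base -195 from the transcript start, and in Nr1i3 the same motif starts at -244. In Nr1h4 they mark AGGTCA read on the opposite strand (TGACCT), from -214. The Nr1h4 window lies inside the gene, which spans chr10:89454234-89533585, upstream of a transcript start within it. The Rora window held none of the motifs searched.
Nr0b2: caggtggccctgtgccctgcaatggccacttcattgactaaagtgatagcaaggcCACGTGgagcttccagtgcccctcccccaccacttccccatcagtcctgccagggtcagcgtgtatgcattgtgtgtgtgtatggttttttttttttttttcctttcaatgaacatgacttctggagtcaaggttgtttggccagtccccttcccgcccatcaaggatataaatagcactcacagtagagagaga
Rora: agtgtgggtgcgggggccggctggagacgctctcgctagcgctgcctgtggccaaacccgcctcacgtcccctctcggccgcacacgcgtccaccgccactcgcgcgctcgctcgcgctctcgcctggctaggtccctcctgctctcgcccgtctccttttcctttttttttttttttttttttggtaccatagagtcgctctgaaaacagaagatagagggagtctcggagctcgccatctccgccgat
Nr1h4: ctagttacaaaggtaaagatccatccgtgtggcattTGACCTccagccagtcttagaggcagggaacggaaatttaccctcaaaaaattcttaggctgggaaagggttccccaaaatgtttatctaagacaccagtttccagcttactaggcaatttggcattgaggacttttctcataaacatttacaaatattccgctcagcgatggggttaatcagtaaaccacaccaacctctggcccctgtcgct
Nr1i3: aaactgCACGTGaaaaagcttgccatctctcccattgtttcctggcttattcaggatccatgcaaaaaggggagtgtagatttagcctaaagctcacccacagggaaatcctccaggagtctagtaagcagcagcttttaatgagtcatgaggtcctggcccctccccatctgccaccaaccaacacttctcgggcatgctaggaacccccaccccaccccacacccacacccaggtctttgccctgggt

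RefSeq promoters were matched for 31 of the 33 members, in 47 windows of 250 bases, and searched on both strands for AGGTCA, its extended form CAAGGTCA (which contains AGGTCA), the repeat AGGTCANAGGTCA, CACGTG and the HNF4A motif CAAAGTCCA. AGGTCA was found in 10 of the 47 windows (21.3%), from 9 members, and in 14.0% of 32817 windows of all genes. CACGTG was found in 4 windows (8.51%), beside 6.02% of all windows. The other 3 motifs were in 0 of the 47 windows and in 1.33% (CAAGGTCA), 0.0335% (AGGTCANAGGTCA) and 0.384% (CAAAGTCCA) of all windows. These matches describe letters in the windows and no binding was measured.

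The members held 0.194% to 0.294% of the counts of a library. Levels between genes are compared as CPM per kb, where CPM is counts per 1000000 counts after scaling and the length is the deposited gene length, averaged over the 15 libraries. Hnf4a was highest, at 138 CPM per kb, followed by Rxra, the main RXR of liver, at 94.2 and Nr1h4 at 55.3. Ppara (51.1) and the sterol sensor LXR-alpha, Nr1h3 (40.7), came next. Their order was not the same in each group: Ppara lay below Nr1h3 in chow GFP livers and above it in the other 4 groups. At the low end, Rarb, a retinoic acid receptor, averaged 0.393 CPM per kb, the orphan receptor Nr2f1 0.248 and Vdr 0.0210. On the scale of CPM, Rxra stood at 564, 512 and 387 CPM in the chow GFP libraries, 441, 462 and 575 in NASH GFP, 469.6, 514 and 495 in Activin A, 579, 536 and 572 in scramble and 537, 556 and 517 in Gpnmb hairpin libraries. Nr2f1 read 0.547, 1.36 and 0.276 CPM in the chow GFP libraries, 1.25, 0.869 and 1.34 in NASH GFP, 1.31, 1.60 and 1.27 in Activin A, 1.92, 1.48 and 2.08 in scramble and 0.979, 1.00 and 1.69 in Gpnmb hairpin libraries. Vdr had 0, 0 and 0 CPM in the chow GFP libraries, 0, 0.241 and 0.377 in NASH GFP, 0.328, 0.343 and 0.121 in Activin A, 0, 0.173 and 0.196 in scramble and 0, 0 and 0 in Gpnmb hairpin libraries. Rxra overlapped between each treated group and its control, Nr2f1 stood above Vdr in every library, and Vdr was at 0 in all chow GFP and all Gpnmb hairpin libraries, where a count of 0 allows up to 3 counts. In bulk RNA fewer cells of a type and less RNA per cell cannot be told apart.

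**Figure D1:**
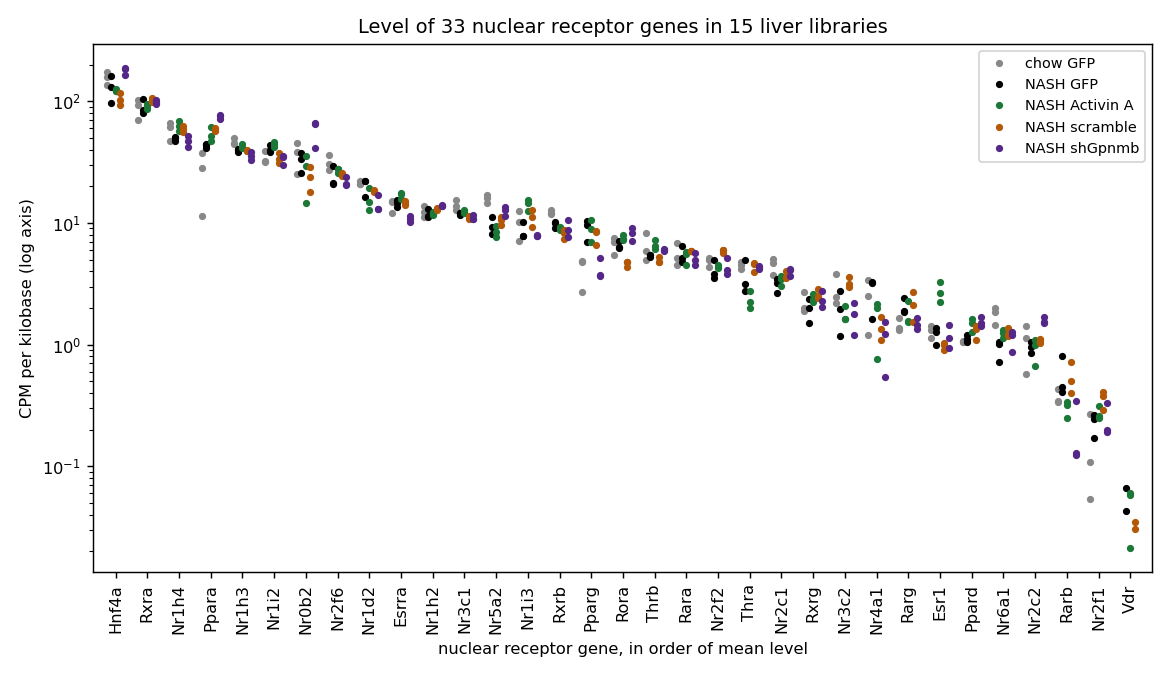
Level of each of the 33 members (CPM per kb, log axis) in the 15 liver libraries, with genes in order of their mean and groups by colour; values of 0 cannot be drawn on this axis, so Vdr shows fewer points. Levels span from Hnf4a at a mean of 138 to Vdr at 0.0210, and the chow GFP points of Ppara reach lower than those of the other groups.

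Total counts ran from 15276879 to 23467867 a library. Gpnmb checked the labels: its log2 fold change was 6.70 ± 0.36 (SE, 3 against 3 libraries) on the diet, -2.93 ± 0.27 under Activin A and -3.95 ± 0.26 with the hairpin (edgeR adjusted p = 6.96e-06, 0.00073 and 1.15e-05), and Inhba, which encodes Activin A, rose by 1.63 ± 0.11 under Activin A (edgeR adjusted p = 0.000192). Inhba also rose with the hairpin, by 0.92 ± 0.17 (edgeR adjusted p = 0.00325), and was at -0.42 ± 0.19 on the diet (edgeR adjusted p = 0.176). The tissue carried its defining markers, and these too moved with the groups. The 7 tested hepatocyte markers summed to 88050 to 119900 CPM in chow GFP, 57430 to 70590 in NASH GFP, 75100 to 77670 in Activin A, 58690 to 69930 in scramble and 71880 to 76850 in Gpnmb hairpin libraries. Of the 7, 3 fell on the diet, the lowest Cps1, a urea cycle enzyme, at -1.02 ± 0.21, and 1 rose under Activin A (Ttr). With the hairpin 2 rose, Cps1 at 1.05 ± 0.14 and Fgb, a fibrinogen chain, at 0.65 ± 0.089. Lists of markers of other cells moved with the groups as well. All 8 macrophage markers rose on the diet, and all 8 fell under Activin A and all 8 with the hairpin. They summed to 200.7 to 234 CPM in chow GFP, 643 to 769 in NASH GFP, 261 to 301 in Activin A, 555 to 675 in scramble and 264 to 348 in Gpnmb hairpin libraries. Of 9 stellate cell markers, 8 rose on the diet, 4 fell under Activin A and 7 fell with the hairpin; their sum was 155 to 167, 326 to 515, 283 to 312, 403 to 548 and 249.6 to 313 CPM in the same order of groups. Of 8 endothelial markers, 2 rose on the diet, 1 rose under Activin A and 4 fell with the hairpin; they summed to 189.5 to 247, 244 to 318, 283 to 336, 343 to 392 and 249 to 343 CPM. Macrophage and stellate cell markers were above 0 in every group. Their part in the receptor differences given here was not tested.

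On the NASH diet (NASH GFP against chow GFP), 1 of the 32 tested members rose and 2 fell, at an edgeR adjusted p under 0.05, which is what "rose", "fell" and "called" mean here. Among all 14388 genes tested, 11.2% rose and 5.82% fell, 17.0% in all, against 9.38% of the members. The groups did not overlap for 9 members (28.1%), beside 35.4% of all genes. Pparg rose, and Nr5a2 and Nr6a1 fell. The median log2 fold change was -0.11 for the members and -0.011 for all genes, and the median size of change was 0.21 and 0.32. Scaling by the library total alone, without trimmed-mean (TMM) factors, raised the median of all genes on the diet to 0.24 and the share of calls that were higher from 65.7% to 86.8%. Under that scaling 3 members rose (Pparg, Nr1i2 and Rarg) and 0 fell.

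Under Activin A (against NASH GFP, both on the NASH diet), 2 members rose and 0 fell, beside 1.66% and 3.86% of 14598 genes. Those 2, Esr1 and Nr1i3, are 6.25% of the members, and 5.52% of all genes were called. At an unadjusted p under 0.05 there were 9 members, 7 of them higher and 2 lower; DESeq2 called 3 higher and 0 lower, and limma-voom 2 and 0. The groups did not overlap for 13 members (40.6%) and for 25.9% of all genes. The median size of change was 0.19 in both the members and all genes.

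With the Gpnmb hairpin (against scramble, both on the NASH diet), 7 members rose and 8 fell, beside 12.2% and 12% of 14845 genes. Called members were 46.9% of the 32, and called genes 24.3% of all. The groups did not overlap for 20 members (62.5%) and 41.0% of all genes. Median sizes of change were 0.31 in the members and 0.25 in all genes. Those that rose were Nr0b2, Rora, Hnf4a, Nr2c2, Ppara, Thrb and Nr5a2, and those that fell were Rarb, Pparg, Nr3c2, Nr1i3, Esrra, Nr2f2, Nr1d2 and Nr1h4. One fit of all 15 libraries, which estimates the spread over 5 groups, called 3 higher and 5 lower: the calls of Nr1h4, Ppara, Nr1i3, Thrb, Nr5a2, Nr2c2 and Nr1d2 were lost. Scaling by library totals alone moved the median of all genes to -0.11, the share of calls that were higher from 50.3% to 29.0%, and the members called to 5 higher and 11 lower.

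**Figure D2:**
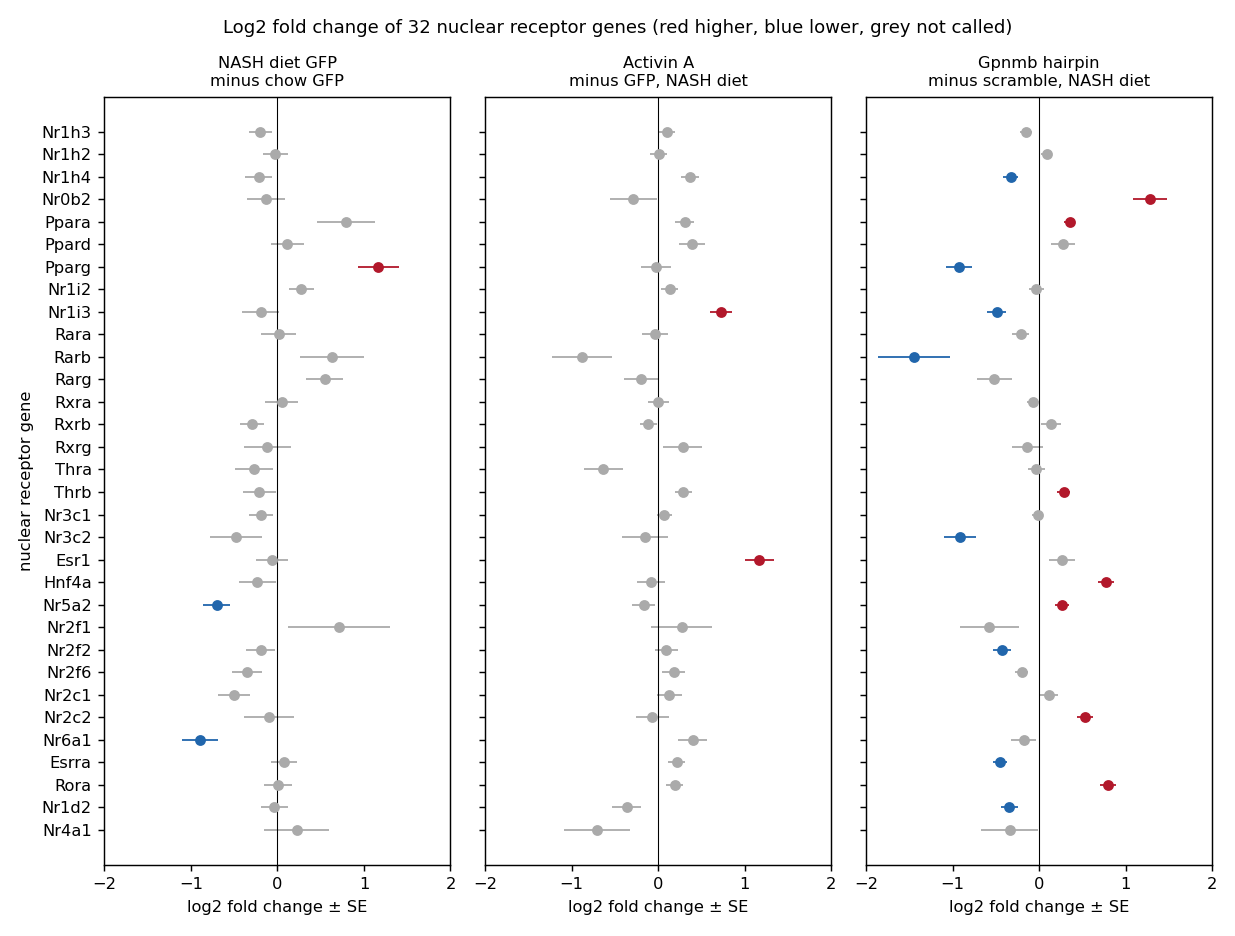
Log2 fold change ± SE of the 32 tested members (rows) in the diet, Activin A and Gpnmb hairpin comparisons (3 against 3 libraries each), coloured where the edgeR adjusted p was under 0.05. Coloured points number 3 on the diet, 2 under Activin A and 15 with the hairpin, and the hairpin points run from Rarb at -1.44 to Nr0b2 at 1.28.

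Among the 7 lipid and bile acid sensors, the diet raised 1 and the hairpin raised 2 and lowered 2. PPAR-gamma (Pparg, ENSMUSG00000000440, chromosome 6, 115360951 to 115490399 on GRCm38), which promotes lipid storage and is raised in fatty liver, stood at 7.96, 14.0 and 14.5 CPM in the chow GFP libraries, 30.4, 28.3 and 20.8 in NASH GFP, 31.1, 20.7 and 26.3 in Activin A, 19.6, 24.7 and 25.5 in scramble and 15.1, 10.8 and 11.0 in Gpnmb hairpin libraries. All NASH GFP libraries lay above all chow GFP libraries, all hairpin libraries lay below all scramble libraries, and Activin A and NASH GFP overlapped. Pparg rose by a log2 fold change of 1.17 ± 0.24 on the diet (edgeR adjusted p = 0.00881) and fell by 0.93 ± 0.15 with the hairpin (edgeR adjusted p = 0.0017). Both calls held in each of the 7 other settings and without each library. Its Activin A change was -0.029 ± 0.18 (edgeR adjusted p = 0.957). All 7 targets of PPAR-gamma in fatty liver rose on the diet, from Lpl, lipoprotein lipase, at 2.11 ± 0.18 to Cidea, a lipid droplet protein gene, at 7.55 ± 0.47. With the hairpin 5 of the 7 fell, from Cd36, a fatty acid transporter, at -0.62 ± 0.071 (edgeR adjusted p = 0.000263) to Cidea at -2.35 ± 0.49 (edgeR adjusted p = 0.00651), and Lpl was at 0.075 ± 0.15. Under Activin A only 1 of the 7 was called, Cd36 at -0.69 ± 0.12 (edgeR adjusted p = 0.0103). The 3 adipocyte markers summed to at most 1.80 CPM in any library, and Lep was at 0 in 4 of the 5 groups. Cd36 and Fabp4 of this list are also expressed by macrophages, whose 8 markers all rose on the diet and all fell with the hairpin. All 8 also fell under Activin A, at a median of -1.33, where the median of this list was -0.12. The part of macrophages in the changes of this list was not tested.

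PPAR-alpha (Ppara) stood at 108, 143 and 43.9 CPM in the chow GFP libraries, 171, 159.9 and 168 in NASH GFP, 181, 235 and 200.2 in Activin A, 231, 220.2 and 222 in scramble and 276, 294 and 290.5 in Gpnmb hairpin libraries. Chow GFP library 3 was the lowest by far, each treated group lay above its control without overlap, and the scramble libraries lay above all NASH GFP libraries. Ppara rose with the hairpin by 0.35 ± 0.065 (edgeR adjusted p = 0.00356). On the diet its log2 fold change was 0.79 ± 0.33 and was not called (edgeR adjusted p = 0.143); it was 0.42 without chow GFP library 3 (edgeR adjusted p = 0.119) and 1.14 without chow GFP library 2 (edgeR adjusted p = 0.0452, called). Of 19 PPAR-alpha targets, 12 rose on the diet, by up to 4.44 ± 0.41 for Acot2, a mitochondrial thioesterase. With the hairpin 6 rose, led by the fatty acid hydroxylase Cyp4a14 at 0.97 ± 0.14, and 2 fell, the lowest Acaa1b, a peroxisomal thiolase, at -0.43 ± 0.082. Under Activin A, Fgf21 rose by 0.71 ± 0.15 and Plin2 was at -0.48 ± 0.10 (edgeR adjusted p = 0.0257 and 0.0282). Cyp4a14 and Acaa1b have close paralogs, and reads may be divided among them. Ppard, the third PPAR, had log2 fold changes of 0.11 ± 0.19, 0.39 ± 0.15 and 0.27 ± 0.14 in the 3 comparisons, none called.

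SHP (Nr0b2, ENSMUSG00000037583, chromosome 4, 133553376 to 133556536), a receptor without a DNA-binding domain that represses other receptors, stood at 28.7, 43.1 and 51.7 CPM in the chow GFP libraries, 38.0, 28.9 and 42.8 in NASH GFP, 16.6, 40.3 and 33.1 in Activin A, 32.7, 20.2 and 26.9 in scramble and 46.3, 73.2 and 74.9 in Gpnmb hairpin libraries. Every hairpin library exceeded every scramble library, and the other groups overlapped widely. Nr0b2 rose by 1.28 ± 0.19 with the hairpin, a 2.43-fold difference (edgeR adjusted p = 0.00123), and the call held in each other setting and without each library. FXR (Nr1h4), the bile acid sensor that induces it, read 109, 142 and 152 CPM in the chow GFP libraries, 116, 115 and 108 in NASH GFP, 159.7, 131 and 146 in Activin A, 144, 128 and 135 in scramble and 119.6, 108 and 97.5 in Gpnmb hairpin libraries. All hairpin libraries were below all scramble libraries, and all Activin A libraries were above all NASH GFP libraries. Scramble libraries were also all above NASH GFP libraries, at 0.27 ± 0.12 (edgeR adjusted p = 0.296, not called). Activin A overlapped scramble, and the hairpin group overlapped NASH GFP. Nr1h4 fell by 0.33 ± 0.084 with the hairpin (edgeR adjusted p = 0.0165); the call was lost without Gpnmb hairpin library 2 or scramble library 1 or 3 (edgeR adjusted p from 0.0534 to 0.0679). Under Activin A its change was 0.36 ± 0.10 (edgeR adjusted p = 0.0763), while DESeq2 (adjusted p = 0.0384) and the authors' deposited table (adjusted p = 0.0404) called it. Of 5 tested genes that FXR induces, 1 rose with the hairpin, the phospholipid transporter Abcb4 at 0.29 ± 0.069. On the diet Abcb4 rose by 0.96 ± 0.21 and Abcb11, the bile salt export pump, was at -0.89 ± 0.16 (edgeR adjusted p = 0.011 and 0.00496). The 2 bile acid synthesis genes that FXR and SHP repress moved in opposite directions with the hairpin: Cyp7a1, the rate-limiting enzyme, was at -2.01 ± 0.38 and Cyp8b1, which sets the cholic acid share, at 0.59 ± 0.13 (edgeR adjusted p = 0.00411 and 0.00704). Cyp7a1 also stood higher in scramble than in chow GFP, at 1.37 ± 0.38 (edgeR adjusted p = 0.00989). In scramble against NASH GFP the median of the 2 genes was 0.895, with neither called. The part of the scramble control in the Cyp7a1 change was not tested.

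The LXRs, Nr1h3 and Nr1h2, sense oxysterols, and neither was called in the 3 comparisons. Nr1h3 ranged from 82.4 to 125 CPM over the 15 libraries, and Nr1h2 from 37.4 to 47.0. Log2 fold changes of Nr1h3 were -0.20 ± 0.13 on the diet, 0.10 ± 0.09 under Activin A and -0.15 ± 0.072 with the hairpin, and those of Nr1h2 -0.025 ± 0.14, 0.005 ± 0.10 and 0.087 ± 0.066. Of 9 LXR targets, 6 rose on the diet, from Lpcat3 at 0.50 ± 0.14 to the cholesterol transporter Abcg1 at 1.76 ± 0.20. Under Activin A 3 rose, from the sterol transporter Abcg5 at 0.80 ± 0.14 to Srebf1, the regulator of fatty acid synthesis, at 1.20 ± 0.24. With the hairpin 2 rose and 2 fell, with Abcg5 at 0.74 ± 0.15 and Srebf1 at -0.85 ± 0.17 (edgeR adjusted p = 0.00558 and 0.00533).

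Among the xenobiotic sensors, CAR (Nr1i3, ENSMUSG00000005677, chromosome 1, 171213970 to 171220701), which induces Cyp2b genes, stood at 45.1, 55.7 and 31.6 CPM in the chow GFP libraries, 34.4, 34.2 and 44.5 in NASH GFP, 64.0, 55.0 and 68.1 in Activin A, 56.5, 40.9 and 49.4 in scramble and 34.8, 34.5 and 35.5 in Gpnmb hairpin libraries. Activin A libraries all lay above NASH GFP libraries, hairpin libraries all lay below scramble libraries and within about 1 CPM of each other, and the diet groups overlapped. Hairpin and NASH GFP libraries overlapped too, and scramble against NASH GFP was at 0.38 ± 0.17 (edgeR adjusted p = 0.28, not called). Nr1i3 rose by 0.73 ± 0.13 under Activin A (edgeR adjusted p = 0.0132) and fell by 0.49 ± 0.11 with the hairpin (edgeR adjusted p = 0.00808). The Activin A call was lost without Activin A library 1 or 3 (edgeR adjusted p from 0.0663 to 0.0804). In GENCODE M21 74.9% of the exon bases of Nr1i3 also lie in exons of Tomm40l, on the other strand. Whether counting used the strand is not stated, so the reads of the 2 genes cannot be told apart. Tomm40l was at -0.94 ± 0.13 with the hairpin (edgeR adjusted p = 0.000802) and 0.24 ± 0.15 under Activin A (edgeR adjusted p = 0.461). Its scramble libraries stood at 30.9, 23.4 and 27.4 CPM. Those of NASH GFP stood at 12.2, 13.9 and 18.0, of Activin A at 17.4, 16.6 and 17.9 and of the Gpnmb hairpin at 13.8, 16.4 and 12.4. PXR (Nr1i2) ranged from 76.0 to 118 CPM and was called in none of the 3 comparisons, with log2 fold changes of 0.28 ± 0.14, 0.13 ± 0.095 and -0.033 ± 0.09. Of 10 tested CAR and PXR targets, 1 rose and 2 fell with the hairpin: Ces2a, a carboxylesterase, was at 0.57 ± 0.16 and Cyp2b10, the classic CAR target, at -4.35 ± 0.46 (edgeR adjusted p = 0.0268 and 0.000179). Under Activin A, Por, the P450 reductase, rose by 0.66 ± 0.15 and Cyp2c29 was at -1.01 ± 0.22 (edgeR adjusted p = 0.0335 and 0.0278). On the diet 2 rose and 2 fell, from Ces2a at -2.10 ± 0.21 to Alas1, the first enzyme of haem synthesis, at 1.07 ± 0.30. Cyp2b10 and Cyp2c29 belong to families of near-identical genes, so their values are uncertain.

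Of the 6 retinoid receptors, 1 was called, in the hairpin comparison. Rarb, a receptor that retinoic acid itself induces, stood at 1.76, 2.27 and 1.79 CPM in the chow GFP libraries, 4.24, 2.37 and 2.15 in NASH GFP, 1.31, 1.77 and 1.69 in Activin A, 2.66, 3.82 and 2.12 in scramble and 0.673, 1.79 and 0.653 in Gpnmb hairpin libraries. The hairpin libraries were below all scramble libraries and Activin A libraries below all NASH GFP libraries, at low levels. Rarb fell by 1.44 ± 0.42 with the hairpin (edgeR adjusted p = 0.0287), and the call was lost without Gpnmb hairpin library 1 or 3 or scramble library 1 or 2 (edgeR adjusted p from 0.0515 to 0.121). Its Activin A change was -0.88 ± 0.35 (edgeR adjusted p = 0.189). Top2b, on the opposite strand, shares 34.1% of the exon bases of Rarb and was at 0.18 ± 0.10 with the hairpin (edgeR adjusted p = 0.226). The other 5 (Rara, Rarg, Rxra, Rxrb and Rxrg) had hairpin log2 fold changes from -0.52 ± 0.20 (Rarg) to 0.14 ± 0.12 (Rxrb), and the largest diet change was that of Rarg at 0.55 ± 0.21 (edgeR adjusted p = 0.114). Of 6 tested retinoic acid targets, 1 rose and 3 fell with the hairpin, and the 1 that rose was Dhrs3, a retinal reductase, at 0.21 ± 0.069 (edgeR adjusted p = 0.0498). Cyp26a1, which degrades retinoic acid, was at -1.52 ± 0.28 under Activin A (edgeR adjusted p = 0.0137). On the diet 2 rose and 1 fell, with Tgm2 at 1.20 ± 0.19 and Dhrs3 at -0.66 ± 0.18. The stellate cell and macrophage markers fell in the same hairpin libraries.

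The thyroid hormone receptors, which regulate lipid use, are Thrb, the main form of hepatocytes, and Thra. Thrb stood at 43.5, 61.3 and 36.4 CPM in the chow GFP libraries, 38.6, 40.3 and 40.3 in NASH GFP, 53.3, 47.6 and 44.8 in Activin A, 38.8, 35.1 and 35.4 in scramble and 43.8, 45.2 and 44.3 in Gpnmb hairpin libraries. All hairpin libraries were above all scramble libraries and all Activin A libraries above all NASH GFP libraries. Thrb rose by 0.28 ± 0.074 with the hairpin (edgeR adjusted p = 0.0183), a call lost without Gpnmb hairpin library 2 or scramble library 2 or 3 (edgeR adjusted p from 0.0545 to 0.103) and under library totals alone. Thra had a log2 fold change of -0.63 ± 0.23 under Activin A, not called (edgeR adjusted p = 0.151), and of -0.33 without NASH GFP library 3. Thra stood at 12.8, 14.5 and 23.0 CPM in NASH GFP and 10.4, 12.7 and 9.24 in Activin A libraries. Nr1d1, on the opposite strand, shares 5.7% of the exon bases of Thra, so reads of the 2 genes may be mixed. Nr1d1 stood at 77.3, 84.5 and 99.9 CPM in NASH GFP and 10.1, 72.9 and 45.6 in Activin A libraries. Its Activin A change was -1.03 ± 0.50 (edgeR adjusted p = 0.294). Of 4 thyroid hormone targets, the lipogenic gene Thrsp was at -3.18 ± 0.15 with the hairpin, the lowest of 2 that fell, and Me1, malic enzyme, at 0.20 ± 0.064, the 1 that rose (edgeR adjusted p = 2.52e-06 and 0.0463). Dio1, the deiodinase that activates thyroid hormone, rose by 0.99 ± 0.13 under Activin A (edgeR adjusted p = 0.00415).

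Of the 3 steroid receptors, Esr1 rose under Activin A and Nr3c2 fell with the hairpin. Estrogen receptor alpha (Esr1, ENSMUSG00000019768, chromosome 10, 4611593 to 5005614) stood at 19.4, 15.6 and 17.9 CPM in the chow GFP libraries, 13.5, 18.6 and 17.4 in NASH GFP, 44.5, 36.1 and 30.7 in Activin A, 14.1, 12.3 and 13.5 in scramble and 19.7, 15.6 and 12.9 in Gpnmb hairpin libraries. The 3 Activin A libraries were the 3 highest of all 15. Esr1 rose by 1.17 ± 0.17 under Activin A, a 2.25-fold difference (edgeR adjusted p = 0.00487), and the call held in each other setting and without each library. Its change was -0.061 ± 0.18 on the diet and 0.26 ± 0.15 with the hairpin, neither called. The mineralocorticoid receptor (Nr3c2) stood at 14.2, 24.5 and 15.8 CPM in the chow GFP libraries, 12.8, 7.63 and 17.8 in NASH GFP, 10.5, 10.4 and 13.4 in Activin A, 20.5, 19.1 and 23.2 in scramble and 14.3, 7.70 and 11.6 in Gpnmb hairpin libraries. Hairpin libraries all lay below scramble libraries, while NASH GFP overlapped both chow GFP and Activin A. Scramble libraries also all lay above NASH GFP libraries, at 0.72 ± 0.26 (edgeR adjusted p = 0.186, not called). Hairpin and NASH GFP libraries overlapped, so a fall with the hairpin and a high scramble control cannot be told apart here. Nr3c2 fell by 0.91 ± 0.18 with the hairpin (edgeR adjusted p = 0.00523), a call that held in each other setting and without each library. The glucocorticoid receptor (Nr3c1) ranged from 80.2 to 114 CPM and had log2 fold changes of -0.19 ± 0.14, 0.067 ± 0.086 and -0.016 ± 0.065, none called. Of 8 tested glucocorticoid receptor targets, 4 rose and 2 fell with the hairpin, from Mt1, metallothionein, at -1.38 ± 0.27 to Igfbp1, which is also induced in fasting, at 2.19 ± 0.14 (edgeR adjusted p = 0.0043 and 1.08e-05). The scramble libraries themselves stood low for Igfbp1: against NASH GFP it was at -2.25 ± 0.20 (edgeR adjusted p = 2.77e-05), the 1 gene of the list called between these 2 controls. On the diet 3 rose, from Fkbp5 at 0.81 ± 0.24 to Igfbp1 at 1.59 ± 0.23, and under Activin A only Mt1 was called, at -3.46 ± 0.78.

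The 9 constitutive and orphan receptors gave 2 calls on the diet, 0 under Activin A by edgeR, and 5 with the hairpin. HNF4A (Hnf4a, ENSMUSG00000017950, chromosome 2, 163506808 to 163572910) stood at 763, 844 and 652 CPM in the chow GFP libraries, 467, 635 and 777 in NASH GFP, 604, 583 and 586 in Activin A, 562, 453 and 494 in scramble and 799, 907 and 888 in Gpnmb hairpin libraries. The hairpin libraries lay above all scramble libraries and above all 6 Activin A and NASH GFP libraries. Hnf4a rose by 0.78 ± 0.093 with the hairpin, a 1.71-fold difference (edgeR adjusted p = 0.000322), in each other setting and without each library. On the diet it was at -0.23 ± 0.21 with overlapping groups (edgeR adjusted p = 0.513). The summed hepatocyte markers were also higher in every hairpin than in every scramble library, and their part in the rise of Hnf4a, Nr0b2 and Nr5a2 was not tested. Of 7 HNF4A targets, 4 rose with the hairpin, from Apob at 0.32 ± 0.10 to G6pc, the glucose-6-phosphatase of gluconeogenesis, at 1.25 ± 0.13 (edgeR adjusted p = 0.0438 and 0.000154). Ttr, transthyretin, was the 1 called on the diet, at -0.75 ± 0.21, and the 1 called under Activin A, at 1.03 ± 0.11. LRH-1 (Nr5a2), which activates bile acid synthesis genes, stood at 93.7, 100.5 and 86.3 CPM in the chow GFP libraries, 47.9, 55.1 and 65.4 in NASH GFP, 49.9, 55.3 and 44.8 in Activin A, 65.5, 56.8 and 61.8 in scramble and 66.9, 79.8 and 75.1 in Gpnmb hairpin libraries. Chow GFP libraries were the 3 highest of the 15, and the hairpin libraries lay above the scramble libraries. Nr5a2 fell by 0.70 ± 0.16 on the diet (edgeR adjusted p = 0.0127), a call lost without NASH GFP library 1 or 2 (edgeR adjusted p from 0.0586 to 0.0752), and rose by 0.27 ± 0.084 with the hairpin (edgeR adjusted p = 0.0416), a call lost without Gpnmb hairpin library 2 or 3 or scramble library 2 or 3 (edgeR adjusted p from 0.0809 to 0.163). That hairpin call held in 3 of 7 other settings, and was also lost under library totals alone and with no filter on low counts (edgeR adjusted p = 0.167 and 0.0632).

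GCNF (Nr6a1), an orphan receptor known from germ cells, stood at 21.5, 20.2 and 15.6 CPM in the chow GFP libraries, 10.9, 7.83 and 11.3 in NASH GFP, 14.2, 12.2 and 13.3 in Activin A, 14.8, 12.8 and 13.3 in scramble and 9.49, 13.0 and 13.8 in Gpnmb hairpin libraries. All 3 chow GFP libraries lay above the other 12. Nr6a1 fell by 0.89 ± 0.21 on the diet (edgeR adjusted p = 0.0155), a call lost without NASH GFP library 2 or chow GFP library 1 (edgeR adjusted p from 0.0542 to 0.062). The testicular receptor TR4 (Nr2c2) stood at 17.0, 21.2 and 8.54 CPM in the chow GFP libraries, 14.4, 12.7 and 15.8 in NASH GFP, 9.94, 16.2 and 14.8 in Activin A, 15.5, 16.6 and 16.3 in scramble and 22.8, 22.3 and 25.1 in Gpnmb hairpin libraries. Each hairpin library exceeded each of the other 12. Nr2c2 rose by 0.53 ± 0.093 with the hairpin (edgeR adjusted p = 0.00264), and its antisense neighbour Mrps25, which holds 30.7% of its exon bases, was at -0.25 ± 0.16. ERR-alpha (Esrra), a regulator of mitochondrial genes with PGC-1, stood at 38.0, 30.8 and 38.4 CPM in the chow GFP libraries, 36.8, 34.3 and 39.3 in NASH GFP, 44.4, 39.6 and 44.1 in Activin A, 35.7, 38.7 and 37.1 in scramble and 27.5, 28.7 and 25.8 in Gpnmb hairpin libraries. The hairpin libraries were the 3 lowest of all 15, and the Activin A libraries were the 3 highest. Esrra fell by 0.45 ± 0.081 with the hairpin (edgeR adjusted p = 0.00306), in each other setting and without each library. COUP-TFII (Nr2f2), which is also made in endothelial and stromal cells, stood at 42.8, 44.2 and 37.3 CPM in the chow GFP libraries, 32.9, 30.4 and 42.8 in NASH GFP, 37.5, 36.8 and 39.0 in Activin A, 48.4, 51.9 and 51.2 in scramble and 44.2, 32.8 and 35.6 in Gpnmb hairpin libraries. Hairpin and scramble libraries did not overlap. Scramble libraries also all lay above NASH GFP libraries, at 0.51 ± 0.13 (edgeR adjusted p = 0.0721, not called), and hairpin and NASH GFP libraries overlapped. Nr2f2 fell by 0.43 ± 0.10 with the hairpin (edgeR adjusted p = 0.0125), a call lost without Gpnmb hairpin library 2 or scramble library 3 (edgeR adjusted p from 0.0507 to 0.0557), beside the 4 of 8 endothelial and 7 of 9 stellate cell markers that fell. On the diet, where 8 of the 9 stellate cell markers rose, Nr2f2 was at -0.19 ± 0.17. Under Activin A, where 4 of the 9 fell, it was at 0.093 ± 0.13, and it was called in neither. The part of endothelial and stellate cells in these Nr2f2 values was not tested. The other 3, Nr2c1, Nr2f1 and Nr2f6, were called in none of the 3 comparisons. The largest change among them was that of Nr2f1 on the diet, at 0.71 ± 0.59 (edgeR adjusted p = 0.468).

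Of the 3 clock and immediate early receptors, 1 rose and 1 fell with the hairpin. ROR-alpha (Rora), which activates clock genes through the response element that REV-ERB receptors also bind, stood at 91.5, 98.8 and 71.7 CPM in the chow GFP libraries, 83.3, 92.7 and 81.8 in NASH GFP, 95.6, 103 and 95.4 in Activin A, 56.6, 63.0 and 62.6 in scramble and 92.2, 107 and 118 in Gpnmb hairpin libraries. The scramble libraries were the 3 lowest of all 15, and the hairpin libraries overlapped the chow GFP, NASH GFP and Activin A libraries. Rora rose by 0.80 ± 0.093 with the hairpin (edgeR adjusted p = 0.000287), in each other setting and without each library. In scramble against NASH GFP it was at -0.50 ± 0.12 (edgeR adjusted p = 0.062, not called). A rise with the hairpin and a low scramble control cannot be told apart here. REV-ERB-beta (Nr1d2), a repressor of the same genes, stood at 119, 112 and 112 CPM in the chow GFP libraries, 119, 120.0 and 88.0 in NASH GFP, 69.3, 105 and 80.3 in Activin A, 98.1, 101 and 96.5 in scramble and 70.6, 70.8 and 91.9 in Gpnmb hairpin libraries. All hairpin libraries lay below all scramble libraries. Nr1d2 fell by 0.34 ± 0.10 (edgeR adjusted p = 0.0284), a call lost without Gpnmb hairpin library 1 or 2 or scramble library 1, 2 or 3 (edgeR adjusted p from 0.0558 to 0.112). Of 5 shared targets, 4 rose with the hairpin, from Clock at 0.93 ± 0.086 to Npas2 at 1.91 ± 0.27 (edgeR adjusted p = 8.58e-05 and 0.000802), both activators of the core clock. In scramble against chow GFP 3 of the 5 fell. Against NASH GFP 1 was lower in scramble, Nfil3 at -1.165 ± 0.229 (edgeR adjusted p = 0.0271). Under Activin A the 1 called of 4 tested was the repressor Cry1, at 1.56 ± 0.20 (edgeR adjusted p = 0.00299). These genes cycle over the day, and the labels give no hour of collection. NUR77 (Nr4a1), an immediate early gene, ranged from 1.90 to 11.9 CPM with wide spread within groups and was called in none of the 3 comparisons. Of 7 immediate early genes used as a sign of handling, 4 fell with the hairpin, 2 fell under Activin A and 2 rose on the diet. They summed to 175 to 204 CPM in scramble and 94.5 to 146 in hairpin libraries. The sums were 196 to 274 CPM in chow GFP, 237 to 287 in NASH GFP and 144 to 196 in Activin A libraries.

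**Figure D3:**
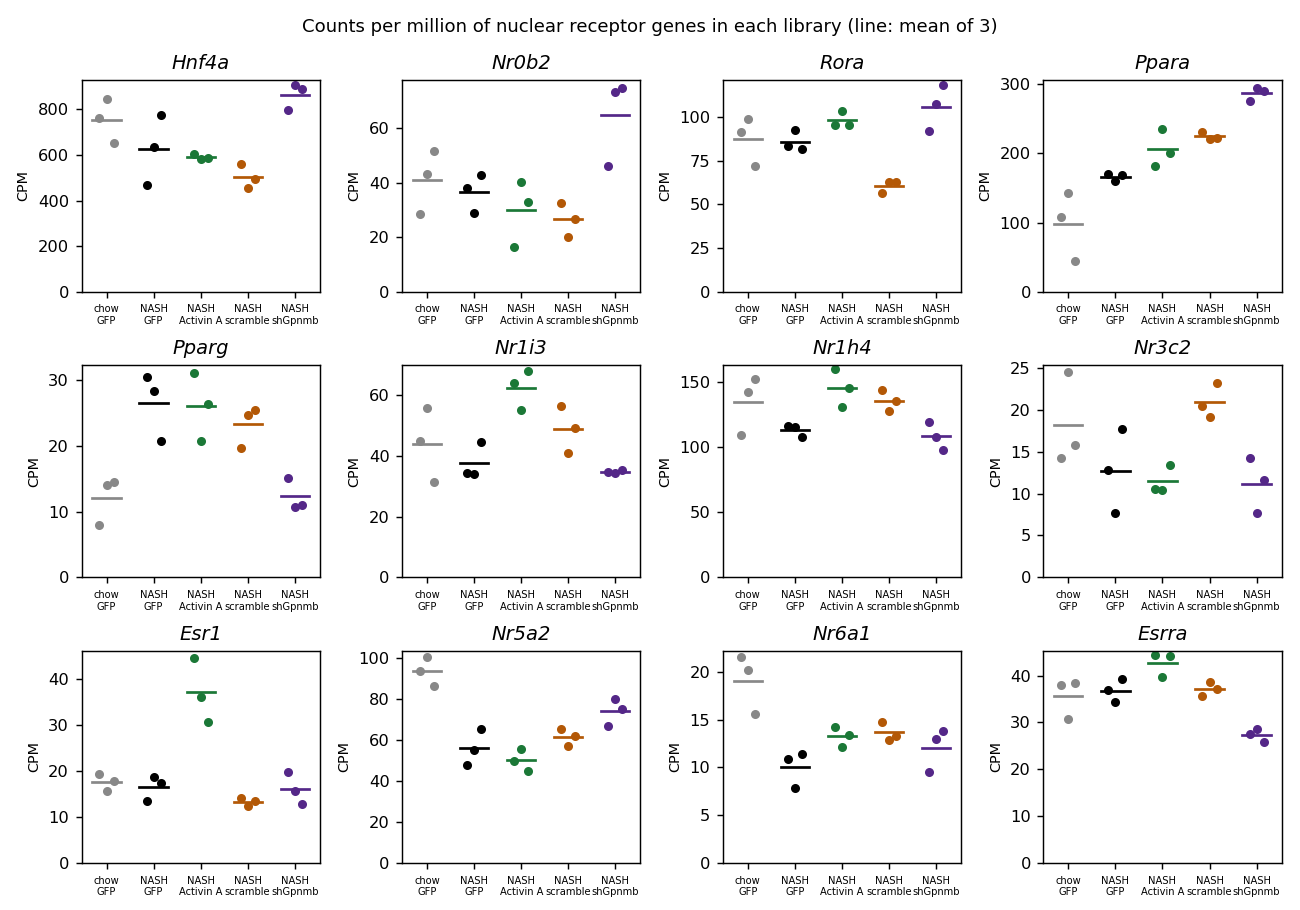
CPM of 12 members in each of the 15 libraries, with 1 point a library and a line at the mean of the 3 libraries of a group; each axis starts at 0. Nr0b2, Hnf4a and Rora stand higher in hairpin than in scramble libraries, Pparg and Nr1i3 lower, and Esr1 stands highest in the 3 Activin A libraries, at 30.7 to 44.5 CPM.

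Activin A and the Gpnmb hairpin both lowered Gpnmb and raised Inhba. Their effects on the receptors were compared directly, as the Activin A effect minus the hairpin effect in the fit of all 15 libraries. The effects share no library. The difference was called for 6 of 32 members (18.8%), 4 with a more positive Activin A effect and 2 with a more positive hairpin effect, beside 1.90% and 2.14% of 15665 genes (4.04% in all). CAR differed most clearly: Nr1i3 rose under Activin A and fell with the hairpin, a difference of 1.21 ± 0.24 (edgeR adjusted p = 0.00787). The call held in each other setting and without each library. Reads of Nr1i3 cannot be told apart from those of antisense Tomm40l, which stood higher in scramble than in NASH GFP libraries. SHP (Nr0b2) differed by -1.57 ± 0.40 and Hnf4a by -0.86 ± 0.22 (edgeR adjusted p = 0.0327 and 0.0303), each higher under the hairpin and with negative, uncalled Activin A changes. Esr1 differed by 0.90 ± 0.24, Nr1h4 by 0.69 ± 0.17 and Esrra by 0.66 ± 0.15 (edgeR adjusted p = 0.0422, 0.0329 and 0.0172). Nr1h4 and Esrra fell with the hairpin and had positive Activin A changes, of 0.36 ± 0.10 and 0.21 ± 0.10, that were not called. Those 5 differences were lost without some libraries, with the sign kept: Nr0b2 in 8 of 12 leave-outs, Hnf4a, Esr1 and Nr1h4 in 9 each and Esrra in 5.

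Over the 32 members, the Activin A and hairpin log2 fold changes had a Pearson correlation of 0.21 and a Spearman correlation of 0.13, and 16 of 32 (50%) had opposite signs. Over 14239 genes the values were 0.31, 0.23 and 42.8%. The diet and hairpin changes, which also share no library, correlated at -0.33 and -0.24 over the members, with 18 of 32 (56.2%) opposite in sign, and at -0.50 and -0.37 over 14127 genes, with 61.8% opposite. These correlations run across genes, which are not independent replicates, and the points of a comparison share its 6 libraries.

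The same difference, the Activin A effect minus the hairpin effect, was read in the target lists. Of 10 CAR and PXR targets 2 differed, in opposite directions: Cyp2b10 by 5.64 ± 0.90, the direction of Nr1i3, and Cyp2c29 by -1.46 ± 0.36, against it (edgeR adjusted p = 0.00157 and 0.0261). Of 7 HNF4A targets 1 differed, Ttr by 1.11 ± 0.21 (edgeR adjusted p = 0.00539), opposite in sign to Hnf4a. Of 5 ROR and REV-ERB targets 3 were negative, the lowest Npas2 at -4.16 ± 0.92, and 1 was positive, Cry1 at 1.27 ± 0.29 (edgeR adjusted p = 0.015 and 0.0171). Of 8 glucocorticoid receptor targets 2 were negative, Pck1, a gluconeogenic enzyme, at -1.45 ± 0.28 and Igfbp1 at -2.76 ± 0.28 (edgeR adjusted p = 0.00628 and 3.84e-05), the latter beside its low level in scramble. Of 4 thyroid hormone targets 2 were positive, Dio1 at 1.29 ± 0.17 and Thrsp at 4.19 ± 0.82 (edgeR adjusted p = 0.000354 and 0.0072). The LXR, PPAR-gamma, PPAR-alpha and bile acid synthesis lists each gave 1 call: Srebf1 at 2.04 ± 0.32, Cidea at 2.59 ± 0.63, Cyp4a10 at -2.71 ± 0.69 and Cyp7a1 at 2.27 ± 0.53. The value of Cyp7a1 stands beside its higher level in scramble than in chow GFP.

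**Figure D4:**
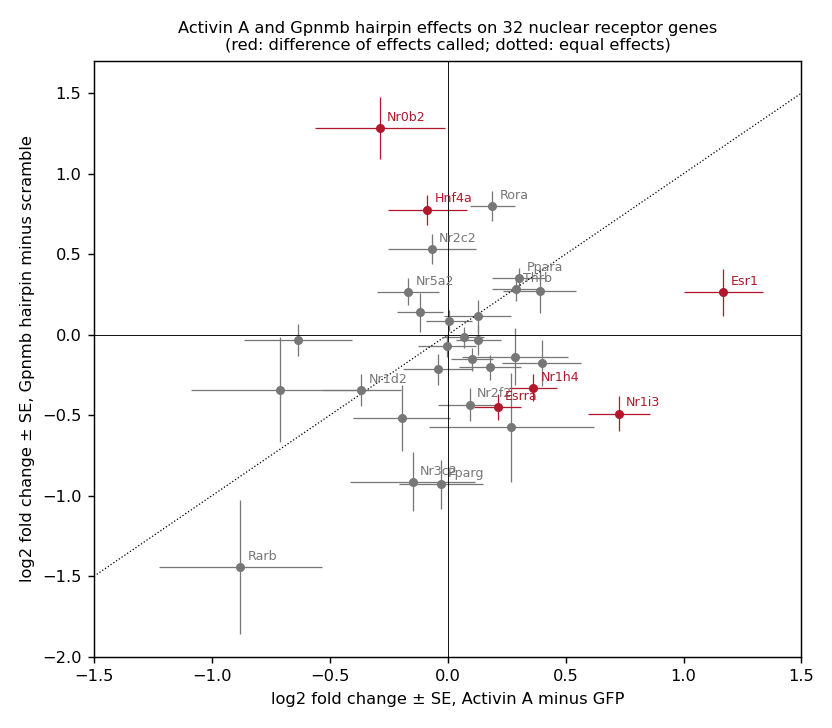
Log2 fold change ± SE of 32 members under Activin A (horizontal) and with the Gpnmb hairpin (vertical), with a dotted line of equal effects and red points where the difference was called. The 6 red points lie off the line: Nr0b2 and Hnf4a above it, and Esr1, Nr1h4, Esrra and Nr1i3 below it.

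The scramble group was a second NASH diet group, and its comparison with chow GFP in the fit of all 15 libraries differs in diet and vector together. In it 3 members rose and 7 fell, beside 17.0% and 17.4% of 15665 genes, and 15 did not overlap (46.9%), beside 46.8%. Pparg rose by 0.95 ± 0.22 and Nr5a2 and Nr6a1 were at -0.61 ± 0.12 and -0.48 ± 0.17 (edgeR adjusted p = 0.00311, 0.001 and 0.0352), so all 3 members called on the diet were called in the same direction; both comparisons use the chow GFP libraries. Ppara rose by 1.19 ± 0.26 and Nr2f1 by 1.34 ± 0.45. Hnf4a was at -0.58 ± 0.15, Rora at -0.52 ± 0.12, Rxrb at -0.60 ± 0.12, Nr3c1 at -0.32 ± 0.091 and Nr1h3 at -0.24 ± 0.091 (edgeR adjusted p = 0.00735, 0.00316, 0.000685, 0.0125 and 0.0485). Under library totals alone 13 members rose and 0 fell, with the median of all genes at 0.31, and Nr1h3 and Nr3c1 turned to 0.087 and 0.0028.

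Between scramble and NASH GFP livers there were 0 members called higher and 0 lower by edgeR in the same fit, beside 0.172% and 0.568% of all genes, 0.741% in all; 9 members had an unadjusted p under 0.05, DESeq2 called 1 higher and 1 lower (Nr2f2 and Rora) and limma-voom 0. The 2 groups did not overlap for 12 members (37.5%) and 24.9% of all genes. Activin A livers differed from chow GFP in 6 members that were higher and 6 that were lower, each beside 11.8% of all genes (23.7% together); 15 did not overlap (46.9%), beside 35.7%. Higher were Pparg (1.11 ± 0.22), Esr1 (1.07 ± 0.17), Ppara (1.06 ± 0.26), Nr1i3, Ppard and Nr1i2. Lower were Thra (-0.94 ± 0.18), Nr5a2 (-0.90 ± 0.12), Nr6a1, Rxrb, Nr1d2 and Nr2c1. Nr1d1, antisense to Thra and not a member, was also lower, at -1.47 ± 0.40 (edgeR adjusted p = 0.0136). The edgeR adjusted p ran from 4.47e-05 (Nr5a2) to 0.0434 (Nr1d2).

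The authors' deposited table of each comparison, at an adjusted p under 0.05, called 1 member higher and 2 lower on the diet and 7 higher and 8 lower with the hairpin, the same 3 and 15 genes as here. For Activin A the authors' deposited table called 3 higher and 0 lower, of which 2 were shared and the authors' call of Nr1h4 was not made here.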

How the data were processed

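Whole liver RNA was sequenced in 15 libraries, made per the labels with a stranded poly(A) kit. The authors deposited 3 tables, 1 per comparison, which per the file headers hold raw counts per gene and library. Per the file headers the tables also hold the authors' log2 fold changes, p-values and adjusted p-values, used only to compare calls, and a gene length. The build was GRCm38 (mm10), per the submitters' processing notes. No source names an aligner, a counting program or its strand setting.

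The 3 tables list 23962 (diet), 24357 (Activin A) and 24671 (Gpnmb) genes, each with at least 2 counts in sum and none without a gene. The NASH GFP counts are the same in all 23148 genes of both tables that hold them. Replicate libraries were not copies of each other: chi-square per degree of freedom was 5.19 or more.

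Genes passed filterByExpr (minimum count 10) in R 4.3.3. Counts were scaled by TMM and tested with the two-sided quasi-likelihood test of edgeR 4.0.16 on the 6 libraries of a comparison, with Benjamini-Hochberg adjustment over all genes tested and a threshold of 0.05. Contrasts across tables used 1 fit of all 15 libraries, with genes missing from a table at 0. SE is the log2 fold change divided by the square root of F. CPM used TMM factors over the 15 libraries. The model was tested on simulated data. Alternatives were scaling, the filter, DESeq2 1.42.0, limma-voom 3.58.1, the replicate number as a block and leaving out each library.

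The members, the target and marker lists and the tests were chosen with earlier results of these data known, and the lists are no independent evidence. Library values are given for members called in a comparison and for the 3 highest and 3 lowest per kilobase, and from each target list the called members with the highest and lowest change. Library values of Thra and the changes of members that were not called were added after their values were seen. Other genes appear as counts, and a few genes that this rule names are not reported here.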

Additional observations from a re-analysis of the deposited data

Results flagged for a closer look

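For 6 receptors the response to Activin A differed from the response to the Gpnmb hairpin, by a test of the difference itself in the fit of all 15 libraries (edgeR, adjusted p under 0.05). Nr1i3 differed by 1.21 on the log2 scale, higher in all 3 Activin A than in all 3 NASH GFP libraries and lower in all 3 hairpin than in all 3 scramble libraries. Its reads and those of antisense Tomm40l cannot be told apart, and Tomm40l stood higher in scramble than in NASH GFP libraries. Esr1 differed by 0.90, from its rise in all 3 Activin A libraries. Nr1h4 differed by 0.69 and Esrra by 0.66, both with groups that did not overlap and opposite directions in the 2 arms. Neither was called under Activin A (edgeR adjusted p = 0.0763 and 0.275). Groups did not overlap for 25.9% of all genes in the Activin A arm and 41.0% in the hairpin arm. Nr0b2 differed by -1.57 and Hnf4a by -0.86, with hairpin libraries all above scramble libraries and overlapping groups in the Activin A arm. The Activin A arm used a TBG vector and the hairpin arm an H1 vector, each with its own control. For scramble against NASH GFP, the 2 controls, Nr1i3 was at 0.38 ± 0.17, Nr1h4 at 0.27 ± 0.12 and Esrra at 0.015 ± 0.11. Esr1 was at -0.31 ± 0.17, Nr0b2 at -0.46 ± 0.28 and Hnf4a at -0.32 ± 0.15. None was called, and for Nr1h4 all scramble libraries lay above all NASH GFP libraries. The part of the controls in these 6 results was not tested.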

How the results depend on the processing

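Counts of called members are given as higher and lower. Scaling by library totals alone gave 3 and 0 on the diet, 13 and 0 for scramble against chow GFP, and 2 lower (from 6) for Activin A against chow GFP. Under it Nr1h3 and Nr3c1 turned positive for scramble against chow GFP, at 0.087 and 0.0028 (log2). With no filter on low counts the diet gave 2 higher, Activin A 1 lower, and scramble against NASH GFP 2 and 2. DESeq2 gave 1 and 1 for the last. One fit of all 15 libraries gave 2 and 5 on the diet, 1 lower under Activin A, and 3 and 5 with the hairpin. The cause of these shifts was not tested.

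Replicate numbers did not pair the samples: same-numbered libraries correlated at -0.187 to 0.022 in the 3 comparisons, and in no comparison did every library correlate best with its own number. With the replicate number as a replicate block, called members were 1 and 2 on the diet, 2 and 0 under Activin A, 6 and 8 with the hairpin, and 2 and 1 for the Activin A minus hairpin difference (from 4 and 2). The calls lost with the block were Nr5a2 with the hairpin and the differences of Hnf4a, Esr1 and Nr1h4.

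Leaving out each library gave 1 to 2 higher and 0 to 3 lower on the diet, 1 to 3 higher under Activin A, 5 to 7 and 5 to 8 with the hairpin, and 1 to 4 and 0 to 3 for the difference. It gave 2 to 3 and 4 to 8 for scramble against chow GFP, 3 to 6 and 2 to 5 for Activin A against chow GFP, and 0 to 3 and 0 to 1 for scramble against NASH GFP, above 0 only without NASH GFP library 3. Of the calls, 1 of 3 on the diet (Pparg), 1 of 2 under Activin A (Esr1), 6 of 15 with the hairpin and 1 of 6 differences (Nr1i3) held under every setting and without each library.

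With 3 libraries a group, a receptor that was not called is not shown to be unchanged. Receptors at low counts, Vdr, Nr2f1 and Rarb, are limited by counting error. Whole liver mixes cell types, and the strand of counting limits Nr1i3, Nr2f6, Rarb, Nr2c2 and Thra, which share exon bases with antisense genes.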

Other observations

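Of 20 coregulators of nuclear receptors, 1 rose on the diet (Nrip1, a corepressor, 0.78 ± 0.18, SE, log2), and 5 rose and 2 fell with the hairpin. The hairpin changes ran from Hdac3, a histone deacetylase, at -0.40 ± 0.076 to Lpin1, a coactivator and phosphatase, at 1.41 ± 0.27 (edgeR adjusted p = 0.00425). Ppargc1a, PGC-1 alpha, was the 1 coregulator whose effects differed between Activin A and the hairpin, by -1.56 ± 0.26 (edgeR adjusted p = 0.00186).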
